A study of Caenorhabditis elegans with 2 samples.

Results

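The genes egl-18, elt-6, elt-1 and elt-3 encode GATA zinc-finger transcription factors of the C. elegans epidermis, and they are 4 of the 19973 nuclear protein-coding genes annotated on WBcel235 by Ensembl release 115. They were selected on SOX-2 peak values in these same peak lists, so their peak counts and signals are given as a description, with no test. The data come from ChIP-seq, the sequencing of DNA recovered with an antibody against a chromatin-bound protein, of whole late embryos of the strain RW12244, collected at 3.5 hours with egg bleaching. In this strain the endogenous sox-2 gene on the X chromosome carries a TY1, EGFP and 3xFLAG tag placed by CRISPR, st12244[sox-2::TY1::EGFP::3xFLAG], and an anti-GFP antibody recovered the tagged protein. The series holds 1 group of 2 biological replicates, with no second condition, and a control was not analysed here. Whole embryos mix all cell types, so a peak cannot be assigned to the epidermis or to any other tissue.

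GATA factors bind DNA through zinc fingers that recognise sites with the letters GATA. In the worm epidermis ELT-1 specifies the epidermal fate in the early embryo. ELT-3 acts below it in the differentiation of the epidermal cells outside the seam, the lateral row of stem-like epidermal cells. EGL-18, also called ELT-5, and its neighbour ELT-6 act in overlapping fashion in seam cell fate and in vulval development, downstream of Wnt signalling. SOX-2 is an HMG-box factor known in C. elegans mainly from neural and glial lineages, and SOX proteins recognise variants of the letters CATTGT.

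SOX-2 summits were numerous at the shared egl-18 and elt-6 locus on chromosome IV, where 14 ranked summits lay inside either gene or within 10 kb of one. The ranked list of the series holds 8486 nuclear peaks from both replicates. Its thresholded subset holds 660 with an irreproducible discovery rate (IDR) of at most 1%. The IDR is the expected share of irreproducible peaks among those at that rank or above. In all, 19 ranked summits lay at the 4 genes, and 3 of them were thresholded. There were 2 thresholded summits in introns of egl-18, 1 inside the neighbouring gene alg-1 at the far edge of the elt-3 window, and 0 at elt-1. The strongest peak, with a signal of 201, lay in the last intron of egl-18, 1523 bp upstream of elt-6. Peak signal is the authors' own value, and no source used here gives its scale.

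The 4 windows that follow show the summits with the highest signals of the locus that have a peak in both replicates. Each is 101 bp of the ce11 plus strand centred on a summit, and both genes lie on that strand. Capitals mark the letters CATTGT or CTTTGT (written ACAATG or ACAAAG where they lie on the minus strand), TGATAA (written TTATCA on the minus strand), and in the strongest peak the shorter letters ATTGT, which were chosen after seeing the data.
egl-18 last intron, strongest peak, IV:1916404-1916504: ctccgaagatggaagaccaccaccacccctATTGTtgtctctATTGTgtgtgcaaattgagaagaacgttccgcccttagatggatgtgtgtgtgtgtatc
egl-18 first intron, thresholded peak, IV:1903893-1903993: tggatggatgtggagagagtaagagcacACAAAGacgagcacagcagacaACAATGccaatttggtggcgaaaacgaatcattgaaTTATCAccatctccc
egl-18 last intron, ranked peak, IV:1915751-1915851: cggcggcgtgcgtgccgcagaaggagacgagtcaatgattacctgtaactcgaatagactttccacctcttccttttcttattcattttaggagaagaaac
upstream of egl-18, ranked peak, IV:1897658-1897758: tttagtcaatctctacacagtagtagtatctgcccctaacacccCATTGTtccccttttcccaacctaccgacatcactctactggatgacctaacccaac
The strongest peak held ATTGT at 20 and 8 bp before its summit and a GT repeat of 12 bases, and within 50 bp it held none of the longer SOX, GATA or TCF letters searched. The first-intron peak held CTTTGT on the minus strand 22 bp before the summit, CATTGT on the minus strand starting at the summit itself, and TGATAA on the minus strand 36 bp after it. The upstream peak held CATTGT 6 bp before its summit, and the remaining ranked peak of the last intron held none of these letters. In each of these 4 sequences, widened to 100 bp on each side of the summit, 0 of 166 stretches of 36 bases occurred elsewhere in the genome.

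The locus places the pair of genes head to tail. egl-18 (WBGene00001186) spans IV:1902322-1917840, 15519 bp with 3 transcripts, and elt-6 (WBGene00001253) spans IV:1917977-1921643, 3667 bp with 1 transcript. Only 136 bp separate the end of egl-18 from the start of elt-6. The longest egl-18 transcript, F55A8.1a.2, begins with an intron of 11092 bp (IV:1902362-1913453), and the shorter transcripts start at its 3′ end, at 1913446 and 1913454. Intron 4, the last of egl-18, spans IV:1914931-1917123 in all 3 transcripts and is 2193 bp long. Of the 14 ranked summits, 3 lay upstream of egl-18, 10 inside egl-18 and 1 inside elt-6. Within egl-18, intron 1 held 6, intron 3 held 1, intron 4 held 2, and the remaining summit lay in a coding exon. No ranked summit of the series list lay downstream of elt-6 within 10 kb, and the next one stood 22.0 kb past its end. Each replicate list did hold ranked signal there, with no summit past the threshold.

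**Figure D1:**
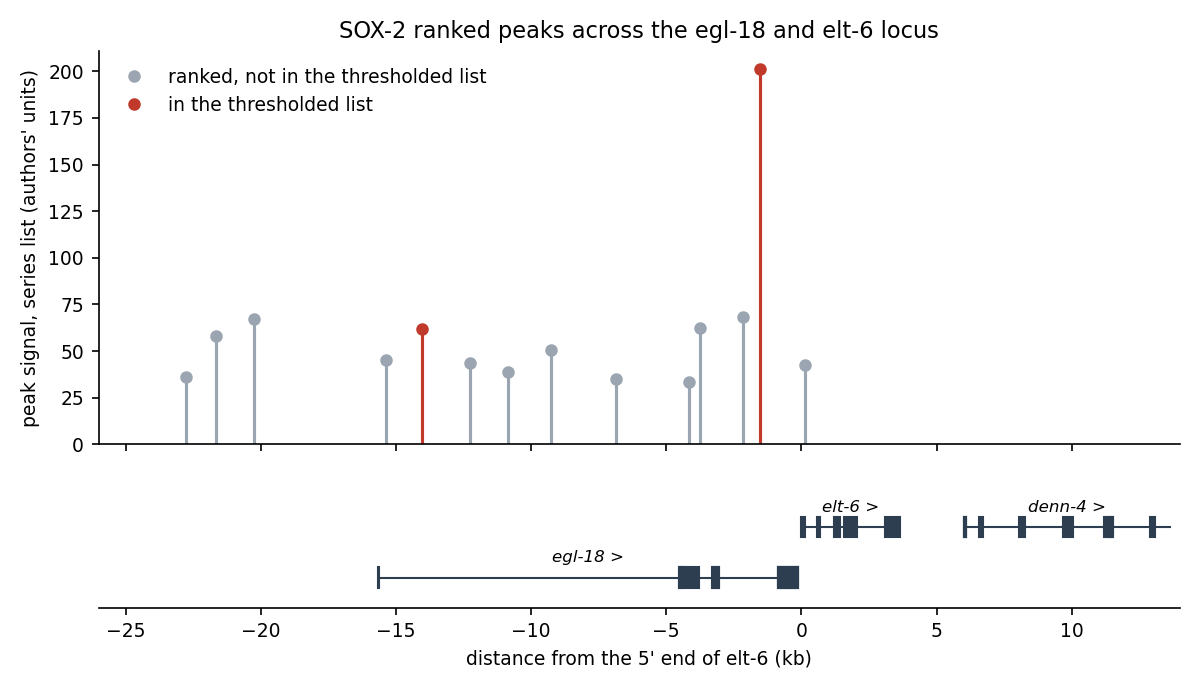
Peak signal in the ranked list of the series (vertical axis, authors' units) by distance of the summit from the 5′ end of elt-6 (kb), with exons as boxes below and arrowheads for strand. Red points are in the thresholded list and grey points are not, and 1 peak, at 201, stands 2.95 times above the second highest of the 14.

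The strongest peak, IV:1916441-1916511 with its summit at 1916454, had a −log10 IDR of 5.00 in both ranked lists of the series, the highest value those lists hold, an IDR of at most 0.00100%. Its signal was 103 in replicate 1 and 99.3 in replicate 2, a mean of 101 ± 2.66 (SD, n = 2). The replicate summits stood at 0 and 18 bp from the pooled summit. The peak passed the threshold in both replicates and was in the conservative list, which holds 84.1% of the nuclear thresholded peaks. Both replicates thus gave this peak nearly the same signal, with a ratio of 1.04 between replicate 1 and replicate 2, beside a median ratio of 1.06 over all matched nuclear peaks. It ranked 51st by signal among 660 nuclear thresholded peaks, whose median signal was 103. The summit lay 14132 bp downstream of the 5′ end of the long egl-18 transcript and 3000 and 3008 bp downstream of those of the short ones, so the elt-6 start was the nearest annotated 5′ end. The pooled peak was 71 bp wide, a width reached or undercut by 3 of the nuclear thresholded peaks, whereas 590 of them were 284 bp wide. Its replicate peaks were 276 bp in replicate 1 and 250 bp in replicate 2, the widths of every matched replicate peak at these genes. The replicate widths therefore cannot show whether this peak was narrow in either replicate. The nearest tRNA gene was 401791 bp away.

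The other thresholded peak of the locus, IV:1903801-1904084 with its summit at 1903943, lay in intron 1, 1621 bp downstream of the 5′ end of egl-18 and 12511 bp from the strongest summit. Its signal was 61.8 in the series list, 37.9 in replicate 1 and 21.7 in replicate 2, a replicate mean of 29.8 ± 11.5 (SD, n = 2). Replicate 1 was 1.75 times replicate 2, and the peak passed in replicate 1, with an IDR of 0.359%, and not in replicate 2, with an IDR of 10.7%. Its IDR was 0.523% in the ranked list behind the thresholded list and 42.0% in the other ranked list of the series, and it was not in the conservative list. It ranked 653rd of the 660 nuclear thresholded peaks by signal. The strongest peak exceeded it 3.26 times in the series list, 2.72 times in replicate 1 and 4.59 times in replicate 2. This first-intron peak therefore stood near the lower edge of the thresholded list and passed in replicate 1 only.

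Just outside the IDR threshold stood a pair of peaks with higher signals than the first-intron peak. The ranked peak of the last intron, IV:1915659-1915942, had a signal of 68.3, with 39.1 in replicate 1 and 26.1 in replicate 2, and an IDR of 3.75%. It lay 2176 bp upstream of elt-6. The peak 4614 bp upstream of egl-18, IV:1897566-1897849, had a signal of 67.1, with 43.5 in replicate 1 and 22.4 in replicate 2, and an IDR of 3.54%. Neither passed in a replicate list. Both were higher in replicate 1, as the first-intron peak was and as 57.0% of the matched nuclear ranked peaks were. The peak at IV:1914074-1914357, in intron 3, had a signal of 62.2 and a peak within 100 bp in replicate 1 only, at 34.0, and its 101 bp window held a run of 19 G bases.

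The 12 ranked peaks of the locus outside the thresholded list ran in signal from 33.2 to 68.3, with a median of 44.4, beside a median of 40.7 over all nuclear ranked peaks. Of these 12, 6 had a peak within 100 bp in both replicates, 1 in replicate 1 only and 5 in replicate 2 only. The peak at IV:1917957-1918240, the single ranked summit inside elt-6 and within its first coding exon, was of the last kind, with a signal of 42.5 in the series list and 34.6 in replicate 2. Of these 12, 4 stood at the IDR of 84.8%, the weakest value of the list, which 46.7% of the nuclear ranked peaks also held. Counting all 14 summits, 8 (57.1%) were matched in both replicates, beside 59.9% of all nuclear ranked summits. The summits of the locus were therefore matched in both replicates about as often as the list as a whole. Taken singly, 9 of the 14 were matched in replicate 1, beside 79.3% of all nuclear ranked summits. In replicate 2, 13 of the 14 were matched, beside 78.2%. The difference between the replicates at the locus was not tested. Neighbouring summits lay 404 to 4912 bp apart, with a median gap of 1585 bp, over a span of 22899 bp.

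**Figure D2:**
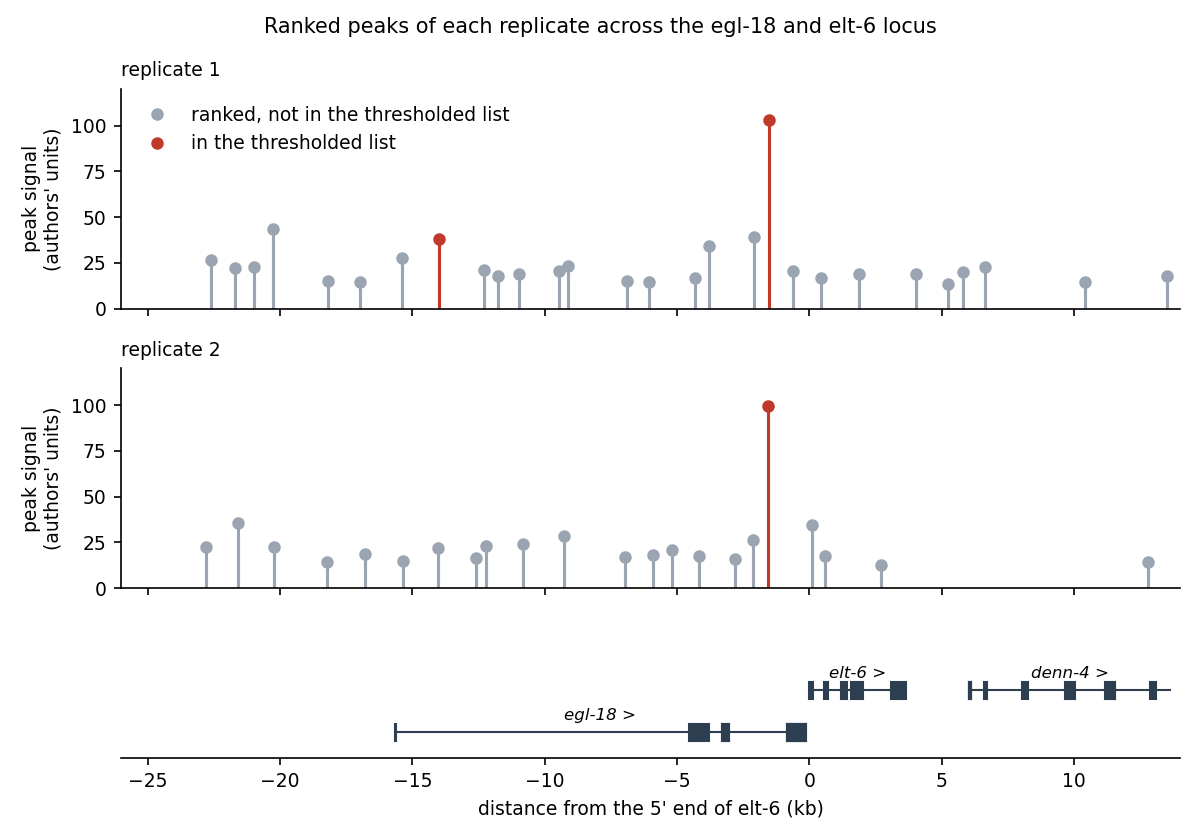
Peak signal (authors' units) in the ranked list of replicate 1 (top) and replicate 2 (middle) by distance from the 5′ end of elt-6 (kb), with gene models below. Red points passed the threshold in that replicate, 2 in replicate 1 and 1 in replicate 2, and the peak of the last egl-18 intron stands at 103 in replicate 1 and 99.3 in replicate 2.

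Each replicate list held more summits in the windows than the series list did. The replicate lists are also longer, with 23706 ranked peaks in replicate 1 and 24418 in replicate 2. The series list holds 8486 nuclear ranked peaks. The higher counts in the replicate lists are therefore not a result about these loci. Replicate 1 had 26 ranked summits at egl-18, with signals from 13.4 to 103 and a median of 20.8. Replicate 2 had 21, with signals from 12.9 to 99.3 and a median of 21.0. Only 8 of the 26 and 8 of the 21 had a summit of the other replicate within 100 bp, so most were called in a single replicate. The matched share over the whole replicate lists was not computed, so these counts cannot be read as a trait of the locus. The elt-6 window held 17 ranked summits in replicate 1 and 12 in replicate 2, and all 7 of its ranked summits in the series list were also in the egl-18 window.

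At elt-3 (WBGene00001251, X:13934874-13941216, 6 transcripts), 4 ranked summits lay in the window and the strongest were beyond the 3′ end of the gene. The thresholded peak, X:13950709-13950992, had a signal of 88.9, with 44.3 in replicate 1 and 46.5 in replicate 2, a mean of 45.4 ± 1.55 (SD, n = 2). It passed in both replicates, had an IDR of 0.292% and was in the conservative list, and it ranked 469th of the 660 nuclear thresholded peaks. Its summit stood 9635 bp past the end of elt-3, just inside the 10 kb limit, and within alg-1 (X:13949110-13956261), which encodes an Argonaute protein of the microRNA pathway. The nearest annotated 5′ end was 411 bp downstream, that of an alg-1 transcript, so alg-1 and not elt-3 was the gene nearest to this peak. The strongest egl-18 peak was 2.26 times as high in the series list.

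A nearer peak, X:13944305-13944588, stood 3231 bp past the end of elt-3 with a signal of 67.7 and an IDR of 22.8% in the series list. It had 44.0 in replicate 1, where it passed, and 23.5 in replicate 2, where it did not, a ratio of 1.87 and a mean of 33.7 ± 14.5 (SD, n = 2). Like the first-intron peak of egl-18, it passed in replicate 1 only. The peak at X:13947438-13947721 had a signal of 35.2, with 22.0 in replicate 1 and 14.3 in replicate 2. The 1 ranked summit of the series list inside elt-3, in a coding exon at X:13940172-13940455, had a signal of 39.0. It had a match in replicate 2 only, at 29.0. No thresholded summit lay inside elt-3 or upstream of it within 10 kb.

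At elt-1 (WBGene00001249, IV:9614995-9620280, 6 transcripts) the window held 1 ranked summit of the series list, and it was not inside the gene. That peak, IV:9605210-9605493, had a signal of 41.0, with 22.7 in replicate 1 and 17.9 in replicate 2, a mean of 20.3 ± 3.43 (SD, n = 2), and an IDR of 84.8%. It stood 9643 bp upstream of elt-1, and its nearest 5′ end was that of aat-1, at 3657 bp. The replicate lists held 4 ranked summits in replicate 1 and 5 in replicate 2, none past the threshold, with highest signals of 22.7 in replicate 1 and 17.9 in replicate 2. elt-1, which acts at the top of the epidermal programme, was thus the member with the fewest ranked summits, and its highest signal was the lowest of the 4. The first ranked summit beyond the 10 kb limit was 10.7 kb upstream of elt-1, with a signal of 45.3. For egl-18 it was 10.6 kb upstream, with 50.2, and for elt-3 it was 11.0 kb downstream, with 49.0, none of them thresholded.

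**Figure D3:**
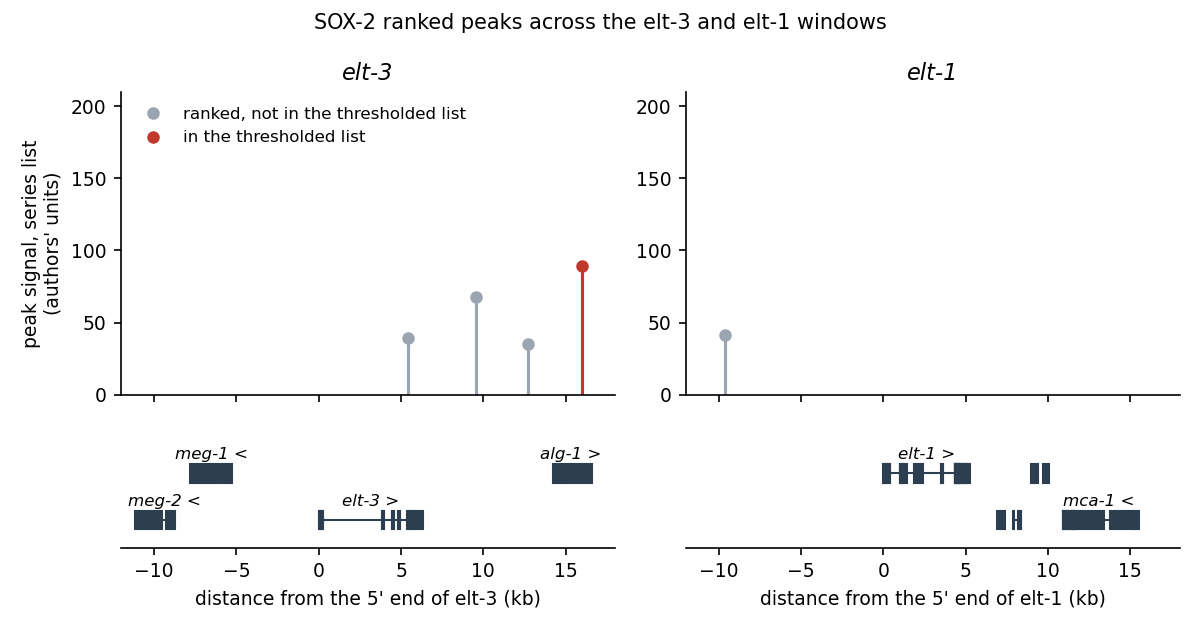
Peak signal in the ranked list of the series (authors' units) by distance from the 5′ end of elt-3 (left) and elt-1 (right) in kb, on the same vertical scale, with gene models below. The 1 red point, at 88.9, is the thresholded peak inside alg-1, and the single elt-1 point stands at 41.0.

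All 4 members had at least 1 ranked summit in the window, as did 77.5% of the 19973 protein-coding genes. A thresholded summit was at 3 of the 4 members, all but elt-1, beside 13.5% of all genes, and a conservative one was at the same 3, beside 13.3%. The thresholded list of replicate 1 reached 3 of the 4 members, beside 11.4% of all genes, and that of replicate 2 also reached 3, beside 11.5%. Because egl-18 and elt-6 share their strongest peak, the 3 members with a conservative summit rest on 2 peaks, 1 of them inside alg-1. The 14 ranked summits of egl-18 were reached or exceeded by 0.0350% of genes, 7 in all, of which hmr-1, encoding a cadherin, was highest with 21. The 7 summits of elt-6 were reached by 1.85% of genes and the 4 summits of elt-3 by 15.2%. The median gene had 2. These members were chosen with such counts in view, so the shares place them within the lists and do not test them.

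Gene length enters these counts, because the egl-18 window was 35.5 kb and the median window 22.0 kb. Per kb of window, egl-18 had 0.394 ranked summits, elt-6 0.296, elt-3 0.152 and elt-1 0.0395, beside a median of 0.0497 over all genes. On that scale 30 genes were above egl-18 and 203 above elt-6. elt-1 was below the median on either scale, and 74.6% of genes had at least its density.

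**Figure D4:**
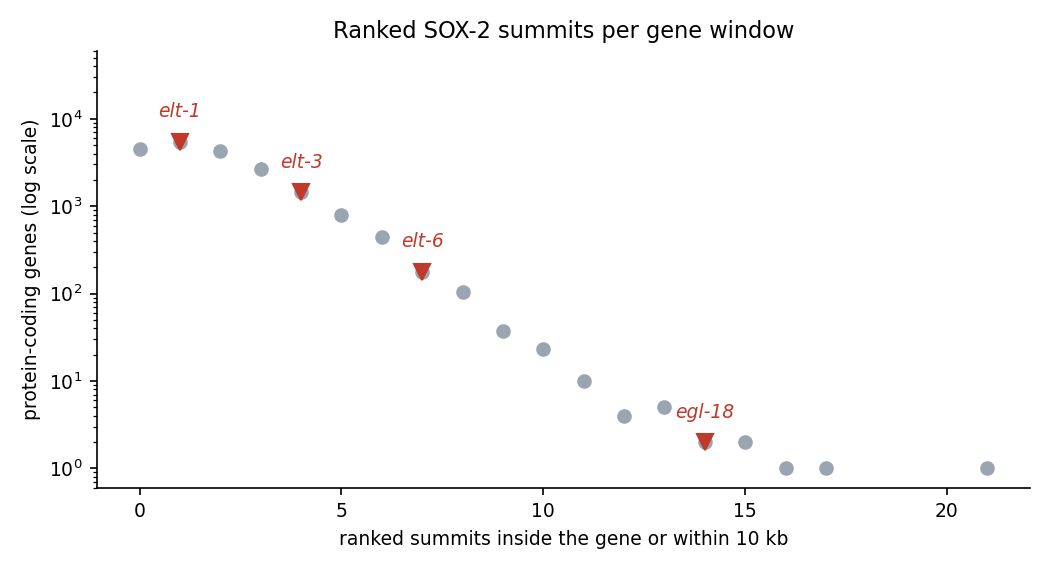
Number of protein-coding genes (vertical log axis) by the number of ranked summits inside the gene or within 10 kb (horizontal axis), as grey points, with red triangles at the counts of the 4 members. egl-18 stands at 14 in the far tail of the distribution, elt-6 at 7, elt-3 at 4 and elt-1 at 1.

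**Figure D5:**
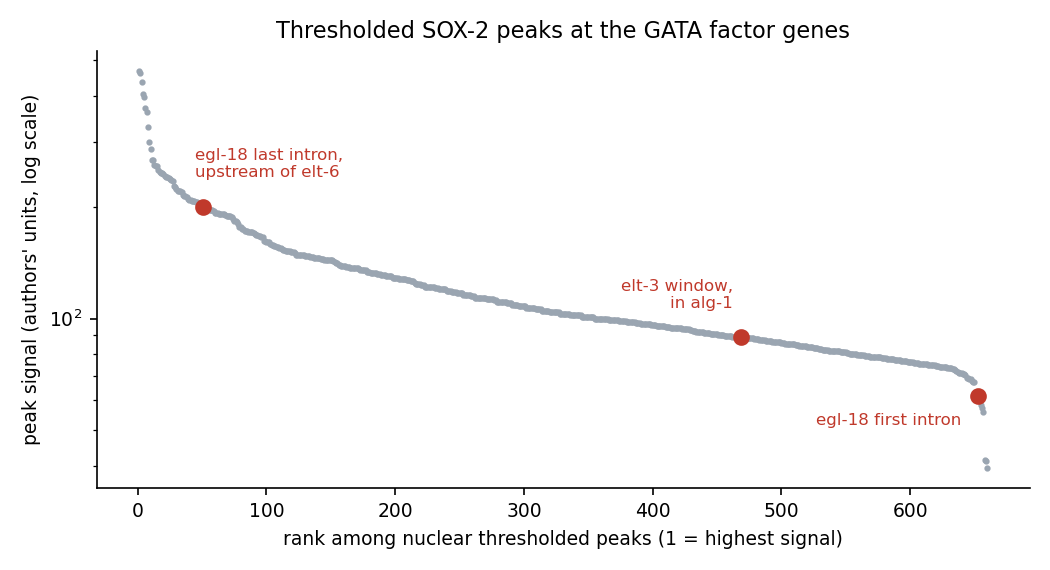
Signal of each of the 660 nuclear thresholded peaks (vertical log axis, authors' units) by its rank (horizontal axis, 1 for the highest), with the 3 peaks of the GATA factor windows in red. They stand at ranks 51, 469 and 653, at the upper end, below the middle and near the lower edge.

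The letters that SOX, GATA and TCF factors are known to recognise were looked for on either strand up to 50 bp from each summit. The SOX letters CATTGT or CTTTGT were at 5 of the 19 summits (26.3%) and at 3 of the 14 of the egl-18 and elt-6 locus (21.4%), beside 20.2% of the 660 nuclear thresholded and 16.6% of the 8486 nuclear ranked summits. GATA letters (AGATAA or AGATAG, and also TGATAA or TGATAG) were at 3 of the 19 (15.8%), beside 12.1% of thresholded and 15.2% of ranked summits. The TCF letters CTTTGAA or CTTTGAT, the kind of site through which Wnt signalling acts on its targets, were at 0 of the 19, beside 1.36% of thresholded and 3.63% of ranked summits. The shorter letters ATTGT or TTTGT, chosen after seeing the data and contained in the SOX letters, were at 14 of the 19 (73.7%), beside 52.3% of thresholded and 57.6% of ranked summits. A match is a run of letters and not a measured site, and the strongest peak had none of the longer letters within 50 bp of its summit but held GATA letters within 100 bp.

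Among the thresholded nuclear peaks, the 3 whose signals were most like those of the strongest peak were ranked by the distance of log2 signal over the series list and both replicate lists, out of 639 peaks compared. The first was an intronic peak of F55A11.6 (V:11782889-11783000) at 200 in the series list, 103 in replicate 1 and 103 in replicate 2. Its summit lay 52 bp downstream of a 5′ end of F55A11.6 and inside an annotated non-coding RNA gene. The others were peaks over tRNA genes, near nhr-255 (X:15741920-15742203) at 202, 102 and 95.9 and within C06G1.1 (X:16634725-16635008) at 198, 99.5 and 96.5.

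The epidermal members, chosen with such counts in view, had 1 to 14 ranked summits, with a median of 5.5. In that median, 7 summits count for both egl-18 and elt-6. The other 7 GATA genes of the worm, the endodermal and mesendodermal factors elt-2, elt-4, elt-7, end-1, end-3, med-1 and med-2, had 0 to 2, with a median of 0. Their windows were at most 22.4 kb, beside 35.5 kb for egl-18, and the difference from the members was not tested. A ranked summit was at 2 of these 7, beside 77.5% of all genes. Of these 7, 1 had a thresholded summit, beside 13.5% of all genes. It was med-2, with a peak of signal 128 at III:6887645-6887928, with 71.1 in replicate 1 and 52.1 in replicate 2. That summit lay inside a tRNA gene, 2760 bp past the end of med-2.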

How the data were processed

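The deposited files are peak lists on ce11, made by the authors from whole-embryo ChIP-seq of 2 biological replicates. Per the deposited text lists, ranked and thresholded lists were made for each replicate, and for both together there are 2 ranked lists, a thresholded list (677 peaks) and a conservative one (651). The smaller ranked list, with 8486 nuclear peaks, was used as the main one. The sources used here name neither an aligner nor a peak caller. The peak signal in each list is the authors' deposited value, and no source used here says whether series and replicate lists share a scale. The deposited ranked lists hold the −log10 of the IDR. Tested on the files, the ranked peaks kept in the thresholded list all reach 2 on that scale, and 96 nuclear ranked peaks past that value are not in the thresholded list. Another 4 signal columns of the series lists, which name no sample, were left out. The lists hold no read counts, so the depth is unknown and no counting interval could be given.

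Summits inside a gene or within 10 kb were counted for every nuclear protein-coding gene of Ensembl release 115, and sequences were read from the NCBI WBcel235 genome, the same assembly as ce11. A replicate value is the ranked peak of that replicate with its summit within 100 bp. Replicate means and SDs cover n = 2. Scripts used Python 3.11.15, pandas 2.3.3, numpy 2.4.6 and matplotlib 3.10.9, and the counting and letter searches were tested on simulated data. No p-value was computed, since there is 1 group. The members, gene lists and tests were chosen with earlier results of these data known. Genes named are the members, their annotated neighbours, the other GATA genes, listed epidermal genes with a thresholded summit, and the genes of the 3 most similar peaks. Genes outside that rule (hmr-1, aat-1, ceh-16, eff-1, his-67, his-68, arf-1) were named after their values were seen. Alternatives changed the window, the list, the IDR threshold, the replicate used and the letters searched.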

Additional observations from a re-analysis of the deposited data

How the results depend on the processing

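Counts at the loci depended on the window and the list, and the highest signal at egl-18 and at elt-6 was 201 also with a 5 kb window and in the other ranked list. With a window of 5 kb, ranked summits were 0 at elt-1 (1 in the main count), so elt-1 had no strongest signal, and 2 at elt-3 (4), where the thresholded count was 0 (1) and the highest signal 67.7 (88.9). With 5 kb, 8.32% of genes had a thresholded summit (13.5%). Inside the gene only, ranked summits were 1 at elt-6 (7), 0 at elt-1 and 1 at elt-3, and thresholded summits were 0 at elt-6, where the highest signal was 42.5, and 0 at elt-3. The conservative list gave 1 summit at egl-18 (2). An IDR of at most 0.05, applied to the ranked list, gave 4 at egl-18 (2) and 2 at elt-6 (1). It left elt-3 at 1 and elt-1 at 0. No share of all genes at that cut is given beside these counts. With each replicate alone, ranked summits ran from 21 to 26 at egl-18, 12 to 17 at elt-6, 4 to 5 at elt-1 and were 8 in both at elt-3. The ranked lists of the replicates are longer than that of the series, so these higher counts are not a result about the loci. Thresholded summits with each replicate alone ran from 1 to 2 at egl-18 and from 1 to 2 at elt-3, where replicate 1 alone gave the higher count at both. The shorter letters ATTGT or TTTGT, chosen after seeing the data, were at 14 of the 19 summits, beside 5 with the longer SOX letters. Within 100 bp of the summit, GATA letters were at 9 of the 19 summits (3), among them the strongest peak, beside 22.3% of thresholded and 28.8% of ranked summits. TCF letters were at 1 (0), beside 3.79% of thresholded and 7.85% of ranked summits. The narrower windows hold part of the wider ones by construction. For the other changes the cause was not tested. No paired analysis was possible because the series has 1 group. The lists give no depth, so a locus without a summit is one with no summit called, not one without SOX-2.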

Other observations

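The list of 21 epidermal and seam genes, chosen with earlier results known, covers transcription factors, fusion and junction proteins, a cuticle collagen and the Wnt/β-catenin asymmetry components of the seam. Of these, 19 had a ranked summit in the 10 kb window, beside 77.5% of all genes, with counts from 0 to 11 and a median of 4.0. A thresholded summit was at 6 of the 21, beside 13.5% of all genes, and 2 of these 6 had it inside the gene. pop-1, the TCF factor of the Wnt/β-catenin asymmetry pathway, had a peak at I:2826884-2827167 with a signal of 191, with 87.2 in replicate 1 and 100 in replicate 2, and it passed in both. lit-1, the Nemo-like kinase of that pathway, had a peak at III:13721259-13721542 with a signal of 94.3, with 43.5 in replicate 1 and 55.2 in replicate 2, and it passed in replicate 1 only.

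The other 4 had their thresholded summits outside the gene. sys-1, a β-catenin, had 2 summits upstream, each with a signal of 111. The first, 1966 bp downstream of the 5′ end of the histone gene his-67, had 84.9 in replicate 1 and 27.2 in replicate 2, and the other, 140 bp upstream of the 5′ end of the histone gene his-68, had 42.2 in replicate 1 and 80.8 in replicate 2. The first sys-1 summit passed in replicate 1 only and the other in replicate 2 only. wrm-1, another β-catenin, had a peak of 83.2 lying 7145 bp upstream and 410 bp from the 5′ end of arf-1. The wrm-1 peak had 31.4 in replicate 1 and 47.5 in replicate 2, and it passed in replicate 2 only. Neither the first sys-1 peak nor the wrm-1 peak was in the conservative list. The summits assigned to aff-1, a fusion protein, and ajm-1, a junction protein, had signals of 149 and 90.7, the first inside a tRNA gene and the other 16 bp from one. The aff-1 summit passed in both replicates and the ajm-1 summit in replicate 2 only. None of the 7 thresholded summits at these 6 genes held the SOX letters CATTGT or CTTTGT within 50 bp, beside 20.2% of all nuclear thresholded summits. With so few summits, that count is not a result about these genes. The epidermal regulator ceh-16 and the fusion gene eff-1 had 0 ranked summits.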
